A study of Xenopus tropicalis with 5 samples.

Results

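In maternal mRNAs of the frog Xenopus tropicalis, 717 cytosines were nearly fully methylated and lay in genes that carried at least 1 further methylated site. They came from RNA bisulfite sequencing (RNA BS-seq) of poly(A)-selected RNA from pooled wild-type embryos at what the authors call stage 0. Bisulfite turns an ordinary cytosine into uracil, whereas 5-methylcytosine (m5C) resists it, so the m5C level of a site is the percentage of reads that still show C there. By their labels the libraries were made from 5 ng (1 library), 10 ng (1 library), 20 ng (1 library) and 100 ng (2 libraries) of RNA of the same stage, with no other treatment. The authors merged the 2 libraries of 100 ng into 1 list of sites, so no input has a replicate spread here, and each test below compares reads of single lists. Members were selected on measured values of the 100 ng list: an m5C level of at least 80%, at least 50 reads, and a gene with at least 2 listed sites. Of the 18524 listed sites in 6458 genes, 902 reached 80%, 794 of these had at least 50 reads, and 717 of those, in 635 genes, met the condition on the gene. They were 4.87% of the 14717 sites with at least 50 reads in genes with 2 or more sites, which are called all comparable sites below.

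In animals, m5C in mRNA is written mainly by the methyltransferases NSUN2 and NSUN6. NSUN2 places it next to G-rich sequence at the base of a hairpin, and NSUN6 places it in a short loop motif. Maternal mRNAs are laid down in the growing oocyte, stored, and translated before the embryo starts its own transcription, so a level near 100% means that nearly every read of the stored copies kept C at that base. Positions below are those of the authors' files on the Xenbase X. tropicalis assembly version 9.1. The bases around the sites, their motif and their place in exon, intron or untranslated region were not analysed here. The files give reads at sites and no expression of other genes, so the stage itself could not be checked with marker genes.

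At 100 ng the 717 sites had a median level of 88.1% (95% interval of the median 87.6 to 88.9), against 20.6% over all comparable sites, a contrast that the choice of members fixes. Of these, 221 lay from 80 to under 85%, 208 from 85 to under 90% and 234 from 90 to under 95%. Only 54 reached 95%, and 3 stood at 100%. High coverage did not mark them out, with a median of 245 reads against 228 over all comparable sites. Their share was 4.90% of the sites with 50 to 99 reads, 4.64% at 100 to 199, 5.09% at 200 to 499, 4.97% at 500 to 999 and 4.75% at 1000 reads or more. Just inside the limit of 80% were hipk2, a nuclear kinase gene, at exactly 80% with 116 of 145 reads, and mbd1, which encodes a methyl-CpG binding protein, at 80% with 164 of 205 reads. Just outside it were pou5f3.3, which encodes a frog relative of the pluripotency factor Oct4, at 79.98% of 6263 reads, and epn2, an endocytic adaptor gene, at 79.9% of 229 reads. Intervals of single sites cover the counting error of reads only, since the reads carry no molecular identifiers. Those of medians and shares are taken over sites, which they treat as independent, and none covers a spread between libraries.

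The members kept their high level in libraries that had no part in choosing them. With at least 50 reads there, 398 members had at 5 ng a median of 87.3% (95% interval 86.4 to 88.3). At 10 ng the median over 379 members was 88.3% (87.6 to 89.1), and at 20 ng it was 87.7% over 411 members (87.0 to 88.7). A level of 80% or more was seen again in 351 of the members read at 5 ng (88.2%), in 331 of those at 10 ng (87.3%) and in 357 of those at 20 ng (86.9%). Levels under 70% occurred at 3, 4 and 4 members in the same order of inputs. The mean difference from the 100 ng level of the same sites was -0.69, -0.42 and -0.36 points from 5 to 20 ng, with SDs over sites of 4.08, 4.25 and 4.43 points. Because 100 ng chose the members, a mean slightly below 0 is built into this comparison and was not tested. When the rule was instead applied to each lower list, it took 392 sites at 5 ng, 373 at 10 ng and 386 at 20 ng, and those sites read at 100 ng lay 0.746, 1.27 and 1.12 points lower on average than where they were chosen. Of the 354 members with at least 50 reads in every list, 272 were at 80% or more in all 3 lower inputs and 11 in none, and the median SD of a site over the 3 inputs was 2.38 points. Whether the libraries came from separate embryos or from the same RNA preparation is not stated in the sources used here. Their agreement therefore describes repeated measurement, and a spread between embryos was not tested.

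**Figure D1:**
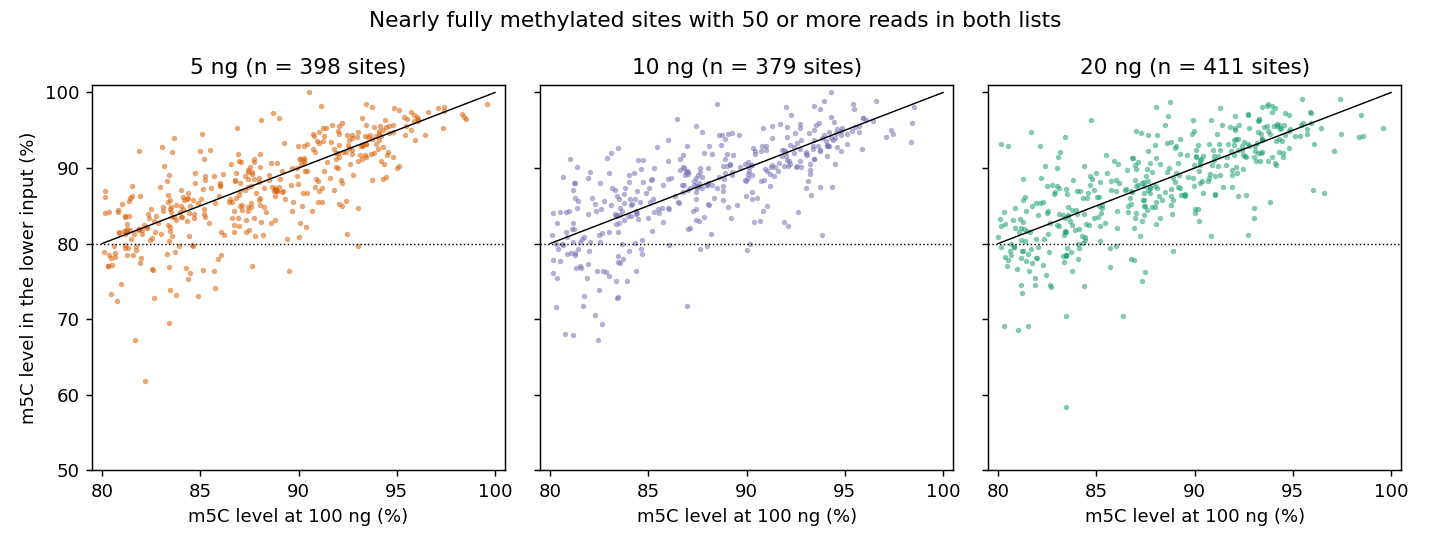
m5C level of the nearly fully methylated sites in each lower input (vertical axis, %) against their level at 100 ng (horizontal axis, %), 1 point per site with at least 50 reads in both lists (398, 379 and 411 sites). The solid line marks equal levels and the dotted line 80%; most points lie along the solid line, and 351, 331 and 357 sites lie at 80% or more.

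The sites that stayed highest in every lower input belonged to genes of varied function. At atad2b, the gene of a chromatin-bound bromodomain ATPase (gene5735, position 141235703 of chromosome 5, minus strand), the level was 96.2% of 398 reads at 5 ng, 96.6% of 444 at 10 ng, 97.3% of 511 at 20 ng and 95.9% of 2244 at 100 ng. The exact Clopper-Pearson 95% interval at 100 ng was 95 to 96.7%, and the 4 values differ by less than the width of that interval. The site in bfar (gene7271, position 31925520 of chromosome 9, plus strand), which encodes an apoptosis regulator of the endoplasmic reticulum, had 95.6% at 5 ng, 97.8% at 10 ng, 99.2% at 20 ng and 95.5% at 100 ng. Noxa1 (gene5106, position 217186 of chromosome 8, plus strand), the gene of an activator of NADPH oxidases, had 96.4%, 95.4%, 95.9% and 95.5% in the same order of inputs. The histone H3 lysine methyltransferase gene ehmt1 (gene22126, position 116129 of scaffold_312, minus strand) had 95.5% at 5 ng, 95.5% at 10 ng, 95.2% at 20 ng and 92.1% at 100 ng. Apex2, which encodes an endonuclease of base excision repair (position 2263960 of chromosome 8, plus strand), had 97.9%, 95.3%, 95.2% and 94.9% from 5 to 100 ng. Emilin2, the gene of an extracellular glycoprotein (position 92087754 of chromosome 6, minus strand), had 95.3%, 95%, 99.2% and 97.4%. Pwwp2b, a chromatin protein gene (position 12595681 of chromosome 7, minus strand), had a lowest value of 95.9% over the lower inputs. C19orf47 (position 56793070 of chromosome 8, plus strand) had 95.2%, which completes the 8 sites with the highest lowest value among these members.

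The most deeply read members are the most precisely measured ones, and their 4 levels lay within a few points of each other. The deepest was in ncapd2 (gene3167, position 1669281 of chromosome 7, plus strand), which encodes a subunit of the condensin complex that compacts mitotic chromosomes. Its level was 82.5% of 4771 reads at 5 ng, 82.6% of 4176 at 10 ng, 81.5% of 5368 at 20 ng and 83.4% of 18225 at 100 ng. Ccnb1 encodes cyclin B1, the partner of the mitotic kinase Cdk1, and its site (gene5371, position 173654928 of chromosome 1, minus strand) had 86.0% of 4302 reads at 5 ng, 85.4% of 3112 at 10 ng, 87.3% of 3361 at 20 ng and 86.5% of 12779 at 100 ng. Its 95% interval was 84.9 to 87.0% at 5 ng, 84.2 to 86.7% at 10 ng, 86.1 to 88.4% at 20 ng and 85.9 to 87.1% at 100 ng, so all 4 intervals shared values. The site in zar1l (gene1785, position 150251837 of chromosome 2, plus strand), a relative of the oocyte RNA-binding protein gene zar1, had 92.5% at 5 ng, 91.6% at 10 ng, 92.2% at 20 ng and 91.8% of 10622 reads at 100 ng. Hn1 (gene4704, position 35830456 of chromosome 10, plus strand) had 90.7%, 89.4%, 88.7% and 88.9% of 15810 reads. In rcbtb1 (gene4567, position 146454811 of chromosome 2, minus strand), which encodes a protein with RCC1 and BTB domains, the level was 91.9% at 5 ng, 92.5% at 10 ng, 93.2% at 20 ng and 92.7% of 14466 reads at 100 ng. Among these 5 sites the widest spread over inputs was that of hn1.

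Larger differences from 100 ng were found at sites with fewer reads. LOC733566 (gene25581, position 487126 of chromosome 9, plus strand) had 73.8% of 84 reads at 5 ng, 72.9% of 59 at 10 ng, 58.3% of 60 at 20 ng and 83.5% of 115 at 100 ng. Its 95% interval at 20 ng was 44.9 to 70.9%, and at 100 ng it was 75.4 to 89.7%, so these 2 did not overlap. Nup205, a nuclear pore gene (position 506119 of chromosome 3, plus strand), had 72.9% at 5 ng, 69.3% at 10 ng, 74.5% at 20 ng and 82.6% of 403 reads at 100 ng. A second nuclear pore gene, nup210 (position 7472 of scaffold_768, minus strand), had 79.7%, 91.9%, 83.3% and 93.0%, and the kinase gene nuak2 (position 64633443 of chromosome 2, minus strand) had 80.8%, 79.2%, 84.6% and 90%. The opposite order was seen at map7d3, a microtubule-binding protein gene (position 47701650 of chromosome 8, minus strand), with 86.9%, 84.0%, 93.2% and 80.1% from 5 to 100 ng. It was also seen at rdh10, a retinol dehydrogenase gene (position 106243049 of chromosome 6, plus strand), with 89.3%, 91.1%, 96.3% and 84.7%. Arid1a, a subunit gene of the BAF chromatin remodeller (position 51905833 of chromosome 2, plus strand), had 90.3%, 87.4%, 92.1% and 83.2%. These 7 sites were named for the size of their difference from 100 ng, which is therefore a description only.

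Between lower inputs, where the choice of members played no part, no member differed past the threshold. Each site with at least 50 reads in both lists entered Fisher's exact test (two-sided), with Benjamini-Hochberg adjustment over all sites of the pair and a threshold of 0.05. For 5 ng against 10 ng, 0 of 358 members were called, beside 0.0146% of the 6835 sites tested. For 5 ng against 20 ng it was 0 of 378, beside 0.0279% of 7179, and for 10 ng against 20 ng 0 of 368, beside 0.0429% of 6986. At an unadjusted p under 0.05 there were 25 members (6.98%) for the first pair, beside 7.21% of all sites tested. The second pair gave 25 (6.61%), beside 6.66%, and the third 32 (8.70%), beside 6.54%. A test with the variance widened by the factor measured between libraries called 0 members in each pair. That factor was 1.43, 1.41 and 1.43 in the same order of pairs. A wider variance makes calls rarer, so this result was largely fixed by the first test and adds nothing to it. The site nearest to a call for 5 ng against 20 ng was in acvr1b, an activin receptor gene, with 37 of 55 reads (67.3%) at 5 ng and 54 of 57 (94.7%) at 20 ng, and its adjusted p was 0.239 by Fisher's exact test. For 5 ng against 10 ng the smallest adjusted p of Fisher's exact test was 0.281, at ash2l, a subunit gene of histone H3 lysine 4 methyltransferases, with 84.1% of 667 reads at 5 ng and 76.2% of 583 at 10 ng. For 10 ng against 20 ng it was 0.298, at the kinesin gene kif18b, with 87.1% of 389 reads at 10 ng and 78.1% of 434 at 20 ng. These tests compare 1 library with 1 library, and a missed threshold does not show equal levels.

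Whether a member was listed at all in a lower input followed its coverage. Of the 717 members, 595 (83.0%) were listed at 5 ng, 567 (79.1%) at 10 ng and 601 (83.8%) at 20 ng, against 67.3%, 64.3% and 69.2% of all comparable sites. With 50 to 99 reads at 100 ng, 38.9% of 162 members were listed at 5 ng, 21.6% at 10 ng and 36.4% at 20 ng, against 25.8%, 15.7% and 25.1% of 3304 comparable sites. From 200 to 499 reads, 186 of 186 members were listed at 5 ng and at 10 ng and 185 at 20 ng, against 83.0%, 83.5% and 84.5% of 3655 comparable sites. All 210 members with 500 reads or more at 100 ng were in all 3 lower lists. Counted list by list, the 5, 10 and 20 ng lists held 88.5%, 88.7% and 90.5% of comparable sites covered by 500 to 999 reads. From 1000 reads upward these lists held 92.4%, 94.0% and 94.4% of comparable sites. No test was made of these shares, since a low level, which the members lack by choice, itself makes a site miss the 10% minimum for listing. In all, 538 members were in 3 lower lists, 44 in 2, 61 in 1 and 74 in none. The 74 had a median of 64 reads at 100 ng and at most 107. Among them were MGC147314, with 97.2% of 107 reads, and aldh16a1, an aldehyde dehydrogenase gene, with 93.9% of 99 reads. At such sites the lower inputs give no value, and the level rests on the 100 ng list alone.

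**Figure D2:**
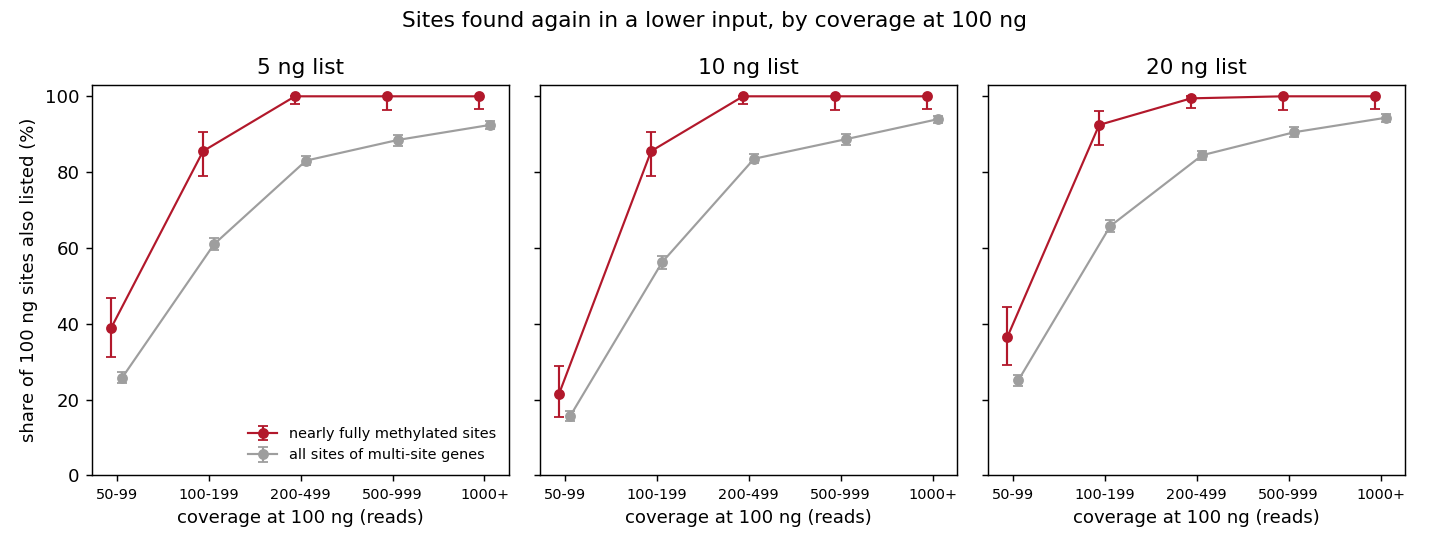
Share of 100 ng sites that were also listed at 5, 10 and 20 ng (vertical axis, %), by coverage at 100 ng in reads (horizontal axis), for the nearly fully methylated sites (red) and all sites with 50 or more reads in genes with 2 or more sites (grey). Bars are 95% Clopper-Pearson intervals; members with 200 reads or more were all listed except 1 at 20 ng.

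Of the 635 genes, 560 held 1 member, 70 held 2, 3 held 3 and 2 held 4. The 635 were 15.2% of the 4189 multi-site genes, and members were 4.87% of comparable sites. At so low a share most genes with a member hold only 1, so these counts are a description only. At 100 ng 630 of the 717 members (87.9%) had the highest level among the listed sites of their gene. A member can miss that rank only where its gene holds another site of 80% or more, so the rule largely fixes this share. The other 2695 sites of the 635 genes had a median level of 19.3% (95% interval 18.8 to 20.0), against 20.2% (20.0 to 20.6) over the 12843 sites of multi-site genes without a member. Of these other sites 51.6% were under 20%, against 49.0% in genes without a member, and 11.2% lay between 50 and 80%, against 11.8%. By the rule neither set holds a site of 80% or more with 50 reads at 100 ng, so this compares only what the choice of members left over. The same sets, still split by the 100 ng list, were also read in the lower inputs. At 5 ng the sites of member genes that were not members had a median of 21.3% (20.2 to 22.4), against 21.8% (21.2 to 22.2) in the other multi-site genes. At 10 ng it was 21.7% (20.8 to 22.8) against 21.6% (21.2 to 22.2), and at 20 ng 21.3% (20.1 to 22.2) against 21.9% (21.4 to 22.4). These intervals overlapped in every lower input. The other sites counted here are those that passed the 10% minimum of the lists, so cytosines of these genes below 10% are not among them.

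Read in the lower inputs, the step between a member and the rest of its gene was about 65 points. With at least 50 reads at every site used, the median difference between a member and the median of its gene's other sites was 64.7 points over 373 members at 5 ng (95% interval 63.1 to 66.3). At 10 ng it was 65.1 points over 352 members (63.8 to 67.5), and at 20 ng it was 64.9 points over 385 (63.3 to 66.3). The member was again the highest site of its gene in 329 cases at 5 ng (88.2%), 316 at 10 ng (89.8%) and 344 at 20 ng (89.4%). It lay below the median of the other sites in 7, 3 and 5 cases. Members were chosen for a high level, so the step and these shares repeat in other libraries what the rule largely fixed.

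**Figure D3:**
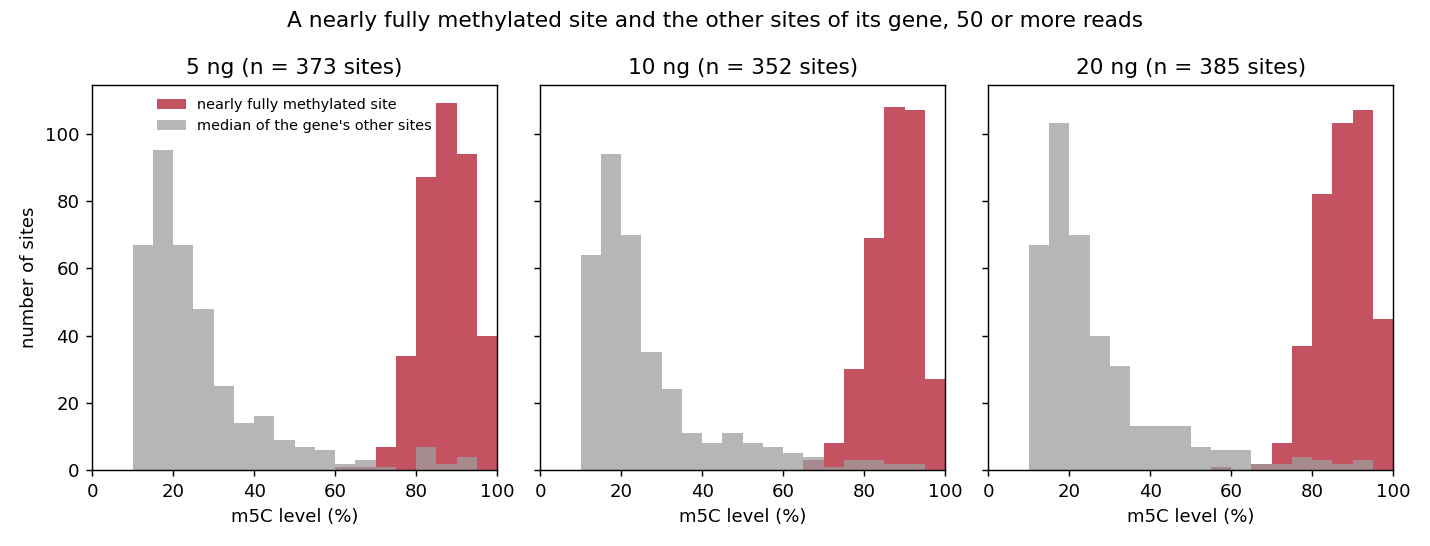
Number of sites (vertical axis) by m5C level (horizontal axis, %, steps of 5 points) at 5, 10 and 20 ng, for the nearly fully methylated sites (red) and for the median of the other sites of the same gene (grey), each with at least 50 reads. The red values gather around 87 to 88% and the grey ones around 21%, with a median difference of 64.7, 65.1 and 64.9 points.

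The same step was found between a member and the very next site along the gene. In each lower list all pairs of neighbouring sites of a gene, both with at least 50 reads, entered the same two-sided exact test, adjusted over all pairs of the list. At 5 ng, 466 of 472 pairs of a member and a site outside the group were called with the member higher, beside 57.2% of all 5166 pairs called in either direction. At 10 ng it was 444 of 448, beside 56.8% of 4681, and at 20 ng 479 of 491, beside 58.7% of 5106. No pair was called with the member lower in any of the 3 lists. The median difference was 66.4 points at 5 ng, 67.1 at 10 ng and 66.6 at 20 ng. Counted by member, 335 of 337 were called higher than at least 1 neighbour at 5 ng, 319 of 322 at 10 ng and 350 of 357 at 20 ng. Close sites share reads, which the test treats as independent. Among neighbours more than 150 nt apart, the member was called higher in 344 of 349 pairs at 5 ng. At 10 ng this was 317 of 321 and at 20 ng 348 of 358, beside 57.2%, 55.2% and 58.1% of all such pairs called. The members were chosen as high at 100 ng, so these calls repeat in other libraries what the rule saw and say nothing on why the sites differ. In the pairs that missed the threshold the neighbour lay between 52.6% in LOC733566 and 84.6% in ermp1, both at 20 ng. In ddb1, which encodes a subunit of ubiquitin ligases, the member had 81.0% and its neighbour 2867 nt away 82.4% at 5 ng, and 84.9% and 83.3% at 20 ng. In gbf1, which encodes an exchange factor of the Golgi, 1 member had 82.7% at 5 ng and 89.2% at 10 ng, and the neighbour 3387 nt away had 77.2% and 78.4%. These 2 genes were picked after the test was seen.

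Among members whose gene had at least 3 other sites with 50 reads in every lower list, the 5 with the largest mean step over the lower inputs were in atad2b, gja7, cdcp1, crk and ttc7b. In atad2b the member at the start of the listed region had 96.2%, 96.6% and 97.3% at 5, 10 and 20 ng, while the median of its other sites was 17.7%, 18.0% and 13.8%. Gja7, a connexin gene (gene1746, position 194786 of scaffold_261, plus strand), had 93.2% at 5 ng, 93.8% at 10 ng, 93.9% at 20 ng and 93.4% of 2434 reads at 100 ng, and at 100 ng its 3 other sites lay between 12.8 and 17.8%, the nearest of them 57 nt downstream. Cdcp1, the gene of a transmembrane glycoprotein (gene22191, position 63645313 of chromosome 6, plus strand), had 97.9%, 94.1%, 92.3% and 97.1% from 5 to 100 ng, and at 100 ng its other sites had a median of 19.5%. Crk, an adaptor protein gene of tyrosine kinase signalling (gene7123, position 39474117 of chromosome 2, plus strand), had 94.8%, 92.3%, 97.0% and 94.8%, with a median of 23.7% for the rest at 100 ng. In ttc7b, a scaffold gene of a phosphatidylinositol kinase (gene24891, position 65815363 of chromosome 8, minus strand), the level was 94.9%, 91.5%, 93.1% and 92.0%, with a median of 21.8% for the rest at 100 ng. These medians include stronger single sites. The highest other site at 100 ng had 67.9% in atad2b, 60.3% in cdcp1, 48.6% in crk and 73.1% in ttc7b. That of cdcp1 lay 94 nt from the member. Outside this ranking, ddx5, an RNA helicase gene (gene31813, position 9671 of scaffold_1412, minus strand), had 2052 of 2159 reads unconverted at 5 ng, 94.8% at 10 ng, 94.5% at 20 ng and 95.7% of 7951 reads at 100 ng, and at 100 ng its 3 other sites lay between 12.1 and 19.2%.

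Spacing was close to that of all comparable sites, apart from the shortest distance. The nearest other listed site of the gene was a median of 652 nt away (95% interval 456 to 929), against 793 nt (751 to 836) over all comparable sites, in genomic distance that can include introns. A site 1 nt away was listed for 45 members (6.28%, 95% interval 4.61 to 8.31), against 3.74% (3.44 to 4.06) of all comparable sites. At 2 to 10 nt the share was 3.49% (2.27 to 5.10) against 2.51% (2.26 to 2.77), and at 11 to 30 nt it was 5.44% against 6.36%. Beyond 5000 nt it was 19.4% against 20.6%. The adjacent sites lay on both sides, 24 on the upstream side (3.35% of members) and 22 on the downstream side (3.07%), against 1.89% on each side for all comparable sites. Their median level was 33.9%, against 25.4% next to any comparable site, while at 11 nt and beyond the nearest site had a median of 18.2 to 21.0% by distance, against 19.5 to 21.1%. No test was made of these shares, which are counted in the list that chose the members. Adjacent sites are read by nearly the same fragments, and the filter on reads with many remaining C can remove reads that are methylated at several close sites; its part was not tested.

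**Figure D4:**
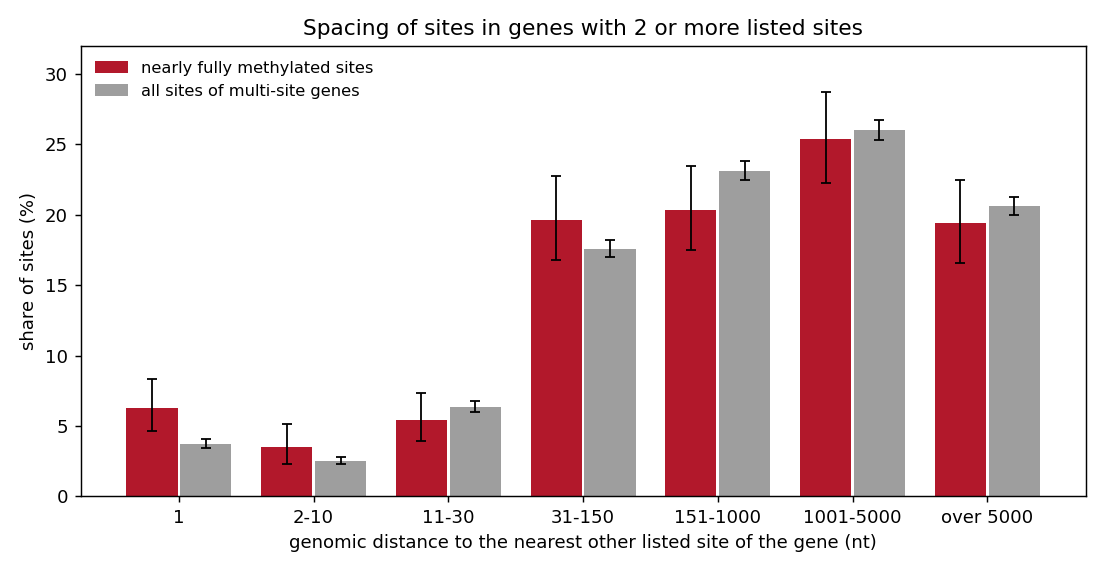
Share of sites (vertical axis, %) by genomic distance in nt to the nearest other listed site of the gene (horizontal axis), for the 717 nearly fully methylated sites (red) and the 14717 comparable sites (grey), with 95% Clopper-Pearson intervals. At 1 nt the shares are 6.28% and 3.74% and their intervals do not overlap, while at the other distances they overlap. No test was made, and the 717 sites are part of the 14717.

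In adjacent listed pairs with a member, the levels often differed widely. In rcbtb1 the member had 92.7% of 14466 reads at 100 ng and the base directly upstream 65.6% of 14790. At ephb4, the gene of an ephrin receptor kinase (gene22169, position 136892949 of chromosome 3, minus strand), the member had 92.1% at 5 ng, 94.7% at 10 ng, 95.6% at 20 ng and 94.6% of 2463 reads at 100 ng, and the base upstream had 18.7% of 2460 reads. A similar pair was found in wdr26, which encodes a subunit of a ubiquitin ligase (gene7385, position 5058092 of chromosome 5, plus strand), with 84.7% of 1817 reads at the member and 20.6% of 1824 reads at the base downstream. A second member of ehmt1 (position 110977 of scaffold_312, minus strand) had 93.4% of 2225 reads, and the base upstream 28.9%. LOC101733100 (gene33251, position 131921636 of chromosome 3, plus strand) had 89.2% of 4849 reads beside 40.3% at the base downstream. In porcn, the gene of the acyltransferase that lipidates Wnt proteins, both bases were members, with 96.3% of 134 reads and 89.7% of 136. The same held for taf1c, a gene of RNA polymerase I transcription, with 84.1% of 63 reads and 80.6% of 62. A wide difference within such a pair is largely built into the choice of members, since comparable sites have a median level of 20.6%. Adjacent bases below the 10% minimum of the lists are not seen here. At the other end, the member of pcdh9, a protocadherin gene, was 142929 nt from the nearest other listed site, that of kazn 124444 nt and that of aff1 113318 nt.

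In 75 genes 2 or more members occurred, 157 in all. The median span from the first to the last member was 4618 nt, with 5 genes within 30 nt and 8 within 150 nt. Spans of other sites were not set beside these. The nearest other listed site was itself at 80% or more for 48 of the 717 members (6.69%), against 4.94% of comparable sites, which was not tested. Col4a5, which encodes a chain of basement membrane collagen (gene19277, chromosome 8, plus strand), had 4 members among 24 sites, at positions 29769839, 29775216, 29789459 and 29791023. They stood at 93.0%, 86.9%, 93.4% and 88.9% at 100 ng, and another site missed the limit at 79.9%. The first had 84.7% at 5 ng, 92.2% at 10 ng and 84.7% at 20 ng, and the third 94.2%, 92.9% and 94.6%. Llgl1, a cell polarity gene (gene17110, chromosome 9, minus strand), had 4 members among 19 sites with 88.0% (position 10214212), 85.2% (10215470), 90.9% (10217804) and 91.1% (10233732) at 100 ng. In the lower inputs these 4 ranged from 79.6 to 93.6%, and its median other site was at 20.3%. In 2 further genes 3 members were found: numa1, a spindle pole gene, had them among 12 sites, and kmt2a, a histone H3 lysine 4 methyltransferase gene, among 11 sites. The members of both genes had under 50 reads wherever a lower input listed them. In numa1 the member at position 15894 of scaffold_772 was listed only at 20 ng, with 96.3% of 27 reads. Its member at 25922 had 95.5% of 22 reads at 5 ng and 79.2% of 24 at 20 ng, and was not listed at 10 ng. The kmt2a member at position 85001447 of chromosome 7 was at 73.3% of 30 reads at 5 ng, 89.7% of 29 at 10 ng and 52.8% of 36 at 20 ng. In ubtd1, which encodes a ubiquitin domain protein (gene28490, chromosome 7, plus strand), 3 of 4 sites were members within 214 nt. The remaining site, upstream of the first, had 19.8% at 5 ng, 15.7% at 10 ng, 24.2% at 20 ng and 17.3% at 100 ng.

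**Figure D5:**
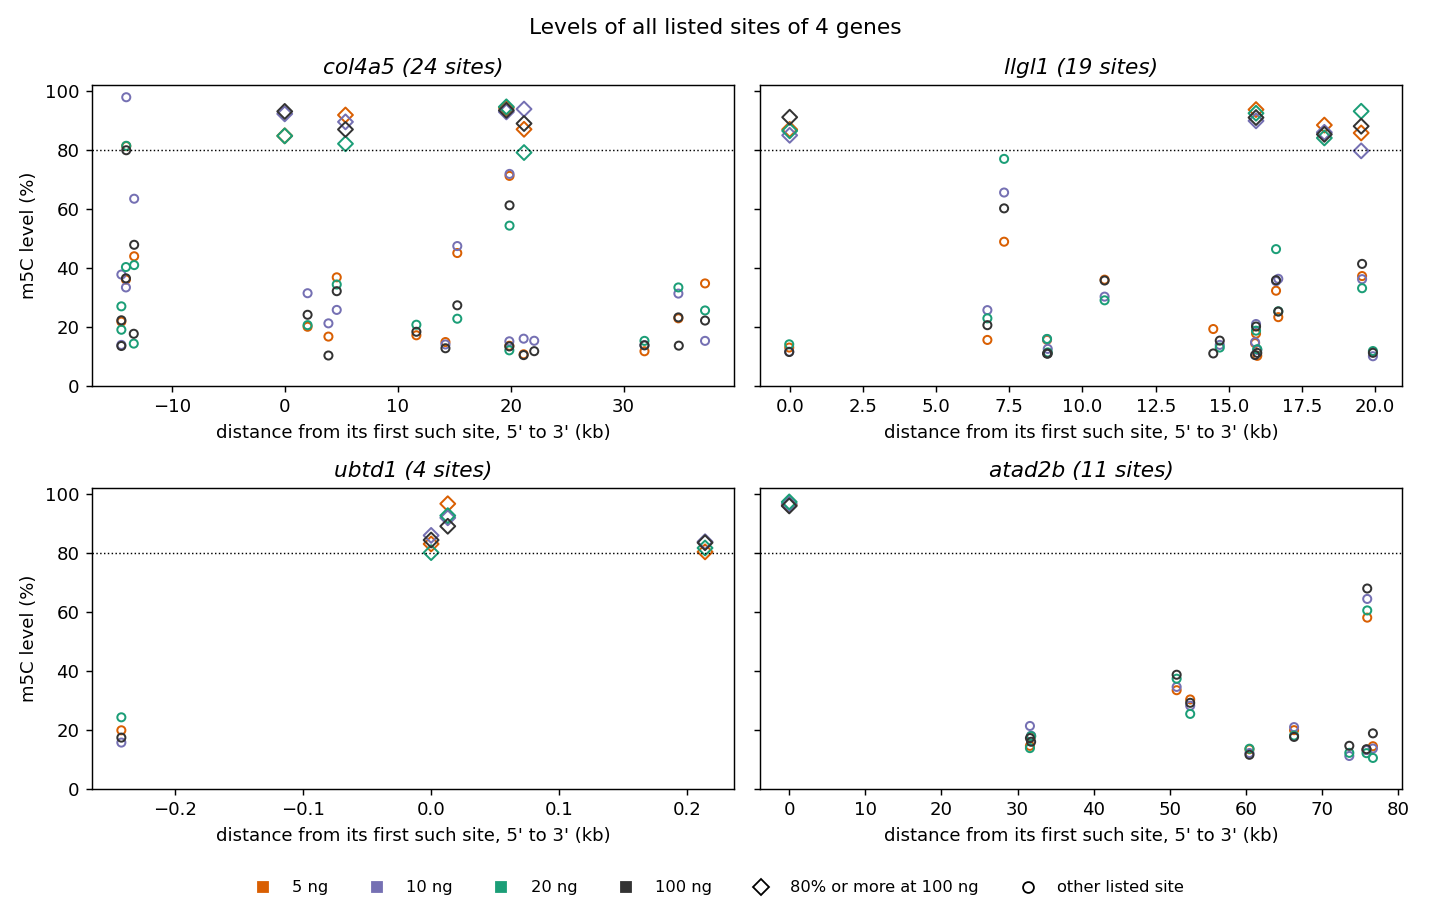
m5C level (vertical axis, %) of all listed sites of col4a5, llgl1, ubtd1 and atad2b by genomic distance along the transcript strand from the first nearly fully methylated site (horizontal axis, kb). Colours stand for the 5, 10, 20 and 100 ng lists, diamonds for sites of 80% or more at 100 ng and circles for other listed sites; the dotted line is at 80%. Diamonds stay near or above the line in each list while most circles lie below 50%.

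Some members of the same gene differed from each other. In a few neighbouring pairs both sites were members. Fisher's exact test called 7 of 20 such pairs at 5 ng, 7 of 13 at 10 ng and 7 of 16 at 20 ng. These shares lay below the 57.2%, 56.8% and 58.7% of all neighbouring pairs called in these lists. Both members of such a pair were chosen as high, which limits their possible difference, so a lower share is largely built in. The pairs were few, and the shares were not compared by a test. In eps15, an endocytic adaptor gene (gene5949, chromosome 4, minus strand), the member at position 86125595 had 94.3% at 5 ng, 94.7% at 10 ng and 95.8% at 20 ng, and the one at 86123198 had 84.3%, 84.5% and 83.8%. The adjusted p of Fisher's exact test was 4.16e-08, 1.79e-08 and 5.14e-14 from 5 to 20 ng. The gene bambi, which encodes a decoy receptor of TGF-beta signalling (gene30337, chromosome 6, minus strand), had 91.2%, 90.8% and 92.3% at position 15899714, and 82.5%, 86.0% and 85.3% at position 15892613, with adjusted p-values by Fisher's exact test of 4.11e-06, 0.0119 and 5.65e-06. For nup98, a nuclear pore gene (gene4078, scaffold_405, plus strand), the site at 43514 had 86.7%, 90.4% and 89.6% and the one at 43250 had 81.3%, 80.6% and 81.5%. Each of these 3 genes had the same member higher in all 3 lower inputs. They were named after the test was seen.

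By gene group, chromatin genes held members more often than most. Groups were formed by the start of the gene symbol and were chosen with earlier results known, so they are described beside the 15.2% of all 4189 multi-site genes that held a member, and the 4.87% of comparable sites that were members. Of 96 chromatin genes 29 had a member (30.2%), with 36 of 530 sites (6.79%). They include smarcc1, a BAF remodeller subunit (gene2412, position 174429 of scaffold_237, plus strand), with 1101 of 1223 reads unconverted at 5 ng, 90.5% at 10 ng, 88.7% at 20 ng and 89.9% of 5140 reads at 100 ng. They also include kmt2b, a histone H3 lysine 4 methyltransferase gene (gene1664, position 997898 of scaffold_37, minus strand), with 83.1%, 83.2%, 84.4% and 83.7%, 1 member among 28 sites. The 530 comparable sites of these 96 genes are more per gene than the 14717 in 4189. Genes with more sites held a member more often, 78 of 162 with 10 or more sites against 110 of 1439 with 2. The share by gene is therefore not like for like, and its dependence on the number of sites was not tested.

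Mitosis and cell cycle genes had a member in 22 of 111 genes (19.8%) and in 6.74% of 386 sites. Besides ncapd2 and ccnb1, ccndx, a D-type cyclin gene (gene3544, position 109248195 of chromosome 7, minus strand), had 81.5%, 78.7%, 82.0% and 80.9% of 6568 reads from 5 to 100 ng. The group also takes in symbols that only start alike, such as cdcp1 and the transcription cyclin gene ccnt1. Extracellular, adhesion and glycosylation genes had a member in 11 of 67 genes (16.4%) and in 5.95% of 252 sites. Itga5, an integrin gene (gene16031, position 142011571 of chromosome 2, plus strand), had 94.3%, 98.5%, 95.6% and 95.4%, and ext1, a heparan sulfate polymerase gene (gene30264, position 121945153 of chromosome 6, minus strand), had 88.5%, 86.8%, 87.0% and 86.8%. Ubiquitin genes had a member in 22 of 140 (15.7%) and in 4.91% of 489 sites. Usp44, the gene of a deubiquitinase of the mitotic checkpoint (gene17383, position 47434757 of chromosome 3, minus strand), had 83.0%, 81.4%, 82.7% and 82.6%, with another member at 92.4% 564 nt upstream. The F-box gene fbxo33 (gene414, position 69907330 of chromosome 8, minus strand) had 86.8%, 91.9%, 91.6% and 90.5%.

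The remaining groups lay at or below the share over all genes. Kinase and phosphatase genes had a member in 17 of 118 (14.4%), membrane transport genes in 14 of 111 (12.6%) and DNA replication and repair genes in 7 of 62 (11.3%). By site the shares of these groups were 3.84% of 443, 4.56% of 329 and 3.43% of 233. Polq, a repair polymerase gene (gene5589, scaffold_85, plus strand), had 2 members among 28 sites, of which the one at position 183164 had 93.7%, 96.7%, 95.9% and 95.9% from 5 to 100 ng. Slc35b2, a gene of the Golgi transporter of the sulfate donor (gene25152, position 20213 of scaffold_870, minus strand), had 91.0%, 86.8%, 91.1% and 90.3%. In zinc finger and BTB genes 6 of 55 had a member (10.9%), and 3.02% of their 199 sites were members. Znf605 (gene2782, position 19180 of scaffold_733, minus strand) had 81.7%, 87.3%, 84.9% and 87.5%. Lower values were seen at znf852 (position 290424 of scaffold_208, plus strand), with 70.2% of 47 reads, 73.9% of 69, 84.1% of 69 and 82.5% of 331. Znf687 (position 55542 of scaffold_532, plus strand) had 79.4% of 34 reads, 71.7% of 53, 79.3% of 58 and 81.7% of 240. RNA processing and translation genes had a member in 14 of 142 (9.86%) and in 3.15% of 476 sites, and ddx5 above and the translation initiation kinase gene eif2ak1 (gene1482, position 19757059 of chromosome 9, minus strand), at 90%, 90.1%, 88.8% and 89.7%, belong to them. Of the genes for m5C enzymes only trdmt1 and nsun6 had the 2 sites that the rule asks for, and neither held a member, a count too small to set beside the share over all genes. Trdmt1 had 3 sites between 13.3 and 20.0%, nsun6 2 sites at 57.4% and 37.2%, and nsun2 a lone site at 71.0% of 1288 reads at 100 ng.

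Neither the number of sites in a gene nor its chromosome set the members apart by much. They were 4.33% of comparable sites (95% interval 3.58 to 5.18) in genes with 2 sites, 5.48% (4.85 to 6.16) with 3 or 4, 4.50% (3.96 to 5.08) with 5 to 9 and 5.18% (4.23 to 6.26) with 10 or more. By chromosome the share ran between 3.16% on chromosome 5 and 5.59% on chromosome 1, and it was 4.64% on unplaced scaffolds. In genes with 3 or more sites, 18.7% of 604 members were the first listed site in the direction of transcription and 19.9% the last, against 19.8% and 19.7% of comparable sites. The plus strand held 49.1% of members and 48.9% of comparable sites. Of the 635 genes 44 carry only a provisional name, and no role is given for these.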

How the data were processed

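The authors trimmed reads with cutadapt and Trimmomatic, mapped them to the converted genome with HISAT2 and the remainder to the converted transcriptome with Bowtie2, removed reads with many remaining C, excluded conversion-resistant genes, called sites by a one-sided binomial test and combined replicates. For each site they deposited its coverage (the count of reads showing C or T), its m5C level (the fraction of those that kept C) and a p-value of the call, which was not used. No listed site was below 20 reads or below a level of 10%. The median coverage of the 5, 10, 20 and 100 ng lists was 80, 80, 83 and 183 reads. The protocol names a larger converted amount than the lower labelled inputs, so input means the label. Whether positions count from 0 or 1 is not given in the sources used here.

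Unconverted reads were level times coverage, whole to within 2.597e-05 reads. Sites were matched by chromosome, position and strand. Fisher's exact tests, Benjamini-Hochberg adjustment, Clopper-Pearson intervals and order-statistic intervals of medians used Python 3.11.15, numpy 2.4.6, scipy 1.17.1 and pandas 2.3.3. The tests were tested on simulated data at the real coverages. A drop of 20 points at sites of 80% or more was called in 78% of cases for 5 and 10 ng. For 5 and 20 ng it was 73.8%, and for 10 and 20 ng 70.3%. A difference of 40 points between neighbours was called in 97.5%, 99.5% and 97.5% of cases at 5, 10 and 20 ng. The simulated reads had binomial variance only, without the spread between libraries. The drops of 20 points were set at 191, 195 and 192 sites at once, whereas the real pairs called 1, 2 and 3 sites. Many true differences ease the adjusted threshold, so the shares for drops overstate how often a lone drop would be called. The second test between libraries multiplied the binomial variance by the factor measured in that pair at sites of at least 30%. Members and gene lists were chosen with earlier results of these data known. Named sites were taken by rank: highest lowest level, highest coverage, largest differences from 100 ng and from the gene's other sites, most members or sites per gene, shortest and longest distance, values nearest 80%, and the deepest members of each gene list; porcn, taf1c, ermp1, the sites nearest to a call between inputs and those said to be picked after a test were chosen after their values were seen. The ranks by lowest level, coverage and differences used only members with at least 50 reads in every list. Alternatives varied the level, coverage and site minimums, the choosing list and the distance of neighbours.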

Additional observations from a re-analysis of the deposited data

Results flagged for a closer look

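The lower lists held almost no strong site that 100 ng lacked. At 5 ng, 1 of 430 sites with a level of at least 80% and at least 50 reads was not in the 100 ng list, against 0 of 406 at 10 ng and 0 of 428 at 20 ng. It drew attention as a strong signal outside the list used to choose the members. The site was in hira, a histone chaperone gene (gene33493, position 145698245 of chromosome 1, minus strand), with 56 of 65 reads unconverted (86.2%) at 5 ng and 30 of 33 (90.9%) at 20 ng, and it was not in the 10 ng list. Hira had 3 other sites in the 100 ng list. Why this site was not listed at 100 ng was not tested.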

How the results depend on the processing

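The number of members depended on the limits. It was 1148 with a level minimum of 70% and 288 with 90%, and 392, 373 and 386 when the rule was applied to the 5, 10 and 20 ng lists, against 717. With at least 100 reads at 100 ng, the shares listed in the 5, 10 and 20 ng lists were 95.9%, 95.9% and 97.7%. With a level minimum of 90% it was 75.7% at 10 ng. The share at 80% or more was 91.6%, 91.1% and 91.2% at 5, 10 and 20 ng with at least 100 reads there. The median of the gene's other sites at 100 ng was 20.3% without other members, against 21.7%, and the median distance was 386 nt when the sites of any list were counted, against 652. Members called higher than a neighbour numbered 202, 175 and 209 with at least 100 reads at both sites, and 520 at 5 ng and 498 at 10 ng with at least 20 reads, since a stricter minimum tests fewer pairs. The other 40 alternatives stayed within 1.5 times the count or within the interval of the value, and no direction changed. Members with under 100 reads at 100 ng mostly have no value in the lower lists. Leaving out a replicate was not possible for 100 ng, whose 2 libraries share 1 set of values. No paired analysis was possible because each input gave 1 set of values.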
